A study of Caenorhabditis elegans with 20 samples.

Results

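The 7 fatty acid desaturase genes *fat-1* to *fat-7* of *Caenorhabditis elegans* were taken from the 22736 genes of the deposited count table by their WormBase identifiers, and all 7 were among the 11270 genes that passed the filter on low counts. The study asked how loss of *dhgd-1*, the D-2-hydroxyglutarate dehydrogenase gene that works alongside the propionate shunt, changes gene expression, and how vitamin B12 changes it in mutant and wild-type animals. RNA from the bodies of day 1 gravid adults, with eggs left out, was counted by Cel-seq2 in 20 libraries. There were 4 groups of 5 libraries each: Δ*dhgd-1* mutants with vitamin B12, Δ*dhgd-1* mutants without it, wild-type animals with vitamin B12 and wild-type animals without it. The mutants carried the *dhgd-1(tm6671)* allele, a large deletion at the 5′ end of the gene, after backcrossing to the N2 strain, and are a single allele. All groups were grown on the *Escherichia coli* OP50 diet, which is low in vitamin B12, and the supplement was 64 nM adenosylcobalamin. Strains had been kept on vitamin B12 before the experiment in all groups, so the animals without supplement had been moved off it.

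Fatty acid desaturases put double bonds into fatty acyl chains, using electrons passed on by cytochrome b5. In *C. elegans* the Δ9 desaturases act first: FAT-5 desaturates mainly palmitic acid, while FAT-6 and FAT-7, close paralogs that can stand in for each other, make oleic acid from stearic acid. The remaining desaturases turn oleic acid into polyunsaturated fatty acids. FAT-2, a Δ12 desaturase, makes linoleic acid, FAT-1 is the ω3 desaturase, FAT-3 is the Δ6 desaturase and FAT-4 is the Δ5 desaturase. Much of this synthesis takes place in the intestine, and the Δ9 genes are known targets of the nuclear receptors NHR-49 and NHR-80, the mediator subunit MDT-15 and the SREBP ortholog SBP-1.

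In the WBcel235 annotation, 5 of the 7 genes lie on chromosome IV. On its plus strand *fat-4* (WBGene00001396, 9799429 to 9802226) stands 796 bp before *fat-3* (WBGene00001395, 9803023 to 9806119), and *fat-1* (WBGene00001393, 13315644 to 13318811) stands 5061 bp before *fat-2* (WBGene00001394, 13323873 to 13326395). The Δ9 genes are dispersed: *fat-6* (WBGene00001398) lies on the minus strand of IV from 11913692 to 11915687, *fat-7* (WBGene00001399) on the minus strand of V from 7151353 to 7153146, and *fat-5* (WBGene00001397) on the plus strand of V from 17725004 to 17726818. All 7 are protein coding, with 3′ untranslated regions of 94 to 205 bp at their longest. *fat-5* overlaps *twk-42* on the other strand. *twk-42* had 217 counts over all libraries, against 3204 for *fat-5*, and the use of strand in counting is not given in the sources used here.

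Library totals ran from 2837943 to 15457950 counts. Cel-seq2 counts tags at the 3′ end, so counts per 1000000 of the library total (CPM) do not scale with transcript length. Replicates 1 and 2 of each group carry other library names than replicates 5, 6 and 7, and every fit had this library series as a term. *acdh-1*, the propionate shunt gene that vitamin B12 represses, had 14.5 to 112 CPM in Δ*dhgd-1* mutants with vitamin B12, against 214 to 428 CPM in those without, and 5.82 to 30.2 CPM in wild-type animals with it, against 193 to 373 CPM in those without. *dhgd-1* had 200 to 459 counts in the mutants and 99 to 228 in wild-type animals without supplement. These are 3′ tags and the deletion is at the 5′ end, so they do not check the genotype. Of 40 markers of 7 tissues or cell types, 28 were tested, and 1 passed the test in 1 of the 4 comparisons. This was the intestinal metallothionein gene *mtl-2*, which was higher in Δ*dhgd-1* mutants with vitamin B12 than in those without (log2 fold change 1.31, edgeR adjusted p = 0.0223). There 1.86% of all tested genes passed. In wild-type animals *mtl-2* averaged 202 CPM with vitamin B12 and 103 CPM without it, and did not pass (0.94, edgeR adjusted p = 0.196). With vitamin B12, 4 of the 28 in mutants and 2 in wild-type animals had an unadjusted p under 0.05. Of the 11270 tested genes, 1178 and 885 did. Between genotypes 3 of the 28 did without supplement and 1 with it, beside 1701 and 765 of all tested genes.

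The 7 genes differed widely in level. *fat-4* was the highest in every group, with group means of 989.6 to 1283 CPM, and *fat-1*, *fat-6*, *fat-2* and *fat-3* had group means of 158 to 657 CPM. *fat-5* and *fat-7* were far lower, with group means of 3.14 to 29.4 CPM and 3.02 to 92.8 CPM. These low genes were the ones whose level differed most between groups, as the plot of levels in each library shows.

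**Figure D1:**
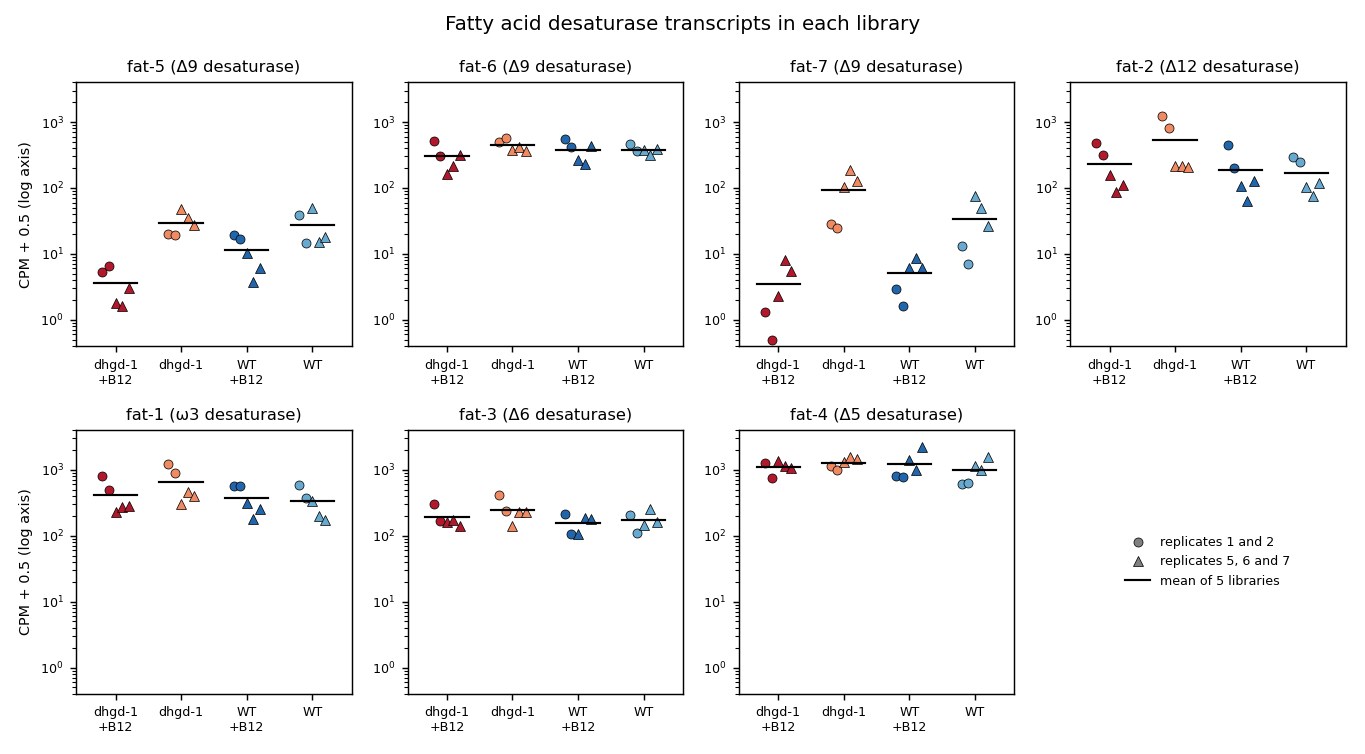
CPM plus 0.5 on a log axis for each desaturase gene in each library, for Δ*dhgd-1* mutants with and without vitamin B12 and wild-type (WT) animals with and without it. Circles are replicates 1 and 2, triangles are replicates 5, 6 and 7, and bars are means of 5 libraries. The *fat-7* points of the mutants with vitamin B12 lie at 7.5 CPM or lower and those of the mutants without it at 23.9 CPM or higher, while the *fat-4* points of all groups lie between 615 and 2233 CPM.

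*fat-7* showed the clearest response to vitamin B12. In Δ*dhgd-1* mutants with vitamin B12 replicates 1, 2, 5, 6 and 7 had 0.795, 0, 1.79, 7.5 and 5.03 CPM (6, 0, 21, 116 and 67 counts). In Δ*dhgd-1* mutants without it they had 28.3, 23.9, 103, 184 and 125 CPM (203, 104, 1426, 2020 and 1735 counts). The highest mutant library with vitamin B12 was below the lowest without it, within each library series as well as over both. *fat-7* fell by 4.88 on the log2 scale (SE 0.42, 95% interval -5.76 to -4.0, edgeR adjusted p = 5.82e-08) and was 29.4-fold lower, at rank 6 of all 11270 tested genes by p-value. In these bulk samples, fewer cells of a type and less RNA per cell cannot be told apart.

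In wild-type animals *fat-7* had 2.47, 1.13, 5.69, 8.16 and 5.54 CPM with vitamin B12 (7, 6, 63, 89 and 59 counts), against 12.6, 6.59, 75.8, 48.7 and 25.6 CPM without it (78, 24, 794, 319 and 323 counts). The groups overlapped only through the low replicate 2 without supplement, and within each library series they did not overlap. *fat-7* fell by 2.92 on the log2 scale (SE 0.41, 95% interval -3.77 to -2.07, edgeR adjusted p = 7.47e-05), a level 7.58-fold lower. The vitamin B12 effect in Δ*dhgd-1* mutants minus that in wild-type animals was -1.96 on the log2 scale, a difference that did not pass the test over all genes (95% interval -3.09 to -0.82, unadjusted p = 0.00162, adjusted p = 0.498).

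Without supplement, *fat-7* was higher in Δ*dhgd-1* mutants than in wild-type animals, with means of 92.8 ± 67.7 CPM and 33.8 ± 28.5 CPM (SD, n = 5 each). The groups overlapped, because both were low in replicates 1 and 2, and each mutant library was above the wild-type library of the same number. The log2 fold change was 1.30 (SE 0.35, 95% interval 0.58 to 2.03, edgeR adjusted p = 0.0434). This call was close to the threshold: it was lost when any 1 of the 5 Δ*dhgd-1* libraries, or wild-type replicate 2, 6 or 7, was left out, with adjusted p over all 10 such fits of 0.0233 to 0.113 and log2 fold changes of 1.09 to 1.55. With vitamin B12 in both, mutants averaged 3.02 ± 3.15 CPM and wild-type animals 4.60 ± 2.80 CPM (SD, n = 5 each), and the log2 fold change of -0.66 did not pass the test (95% interval -1.53 to 0.22, adjusted p = 0.841). The order of the 4 groups was therefore Δ*dhgd-1* mutants, wild-type animals, wild-type animals with vitamin B12 and mutants with vitamin B12, and only the last 2 neighbours did not differ in the test.

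*fat-5* also passed the test with vitamin B12 in Δ*dhgd-1* mutants. In Δ*dhgd-1* mutants with vitamin B12 replicates 1, 2, 5, 6 and 7 had 4.77, 6.00, 1.28, 1.10 and 2.55 CPM (15 to 36 counts), against 19.3, 19.1, 47.1, 34.4 and 27.1 CPM without it (83 to 652 counts). The groups did not overlap, and *fat-5* fell by 3.48 on the log2 scale (SE 0.50, 95% interval -4.51 to -2.45, edgeR adjusted p = 1.25e-04). The size depended on the library series, with a log2 fold change of -1.86 in replicates 1 and 2 alone (adjusted p = 0.340) and -4.40 in replicates 5, 6 and 7 alone (adjusted p = 2.94e-04).

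In wild-type animals *fat-5* had 19, 16.2, 9.75, 3.30 and 5.54 CPM with vitamin B12, against 38.0, 14, 48.4, 14.5 and 17.3 CPM without it. The groups overlapped, with replicate 2 slightly higher with the supplement, and the log2 fold change of -1.51 did not pass edgeR's test (SE 0.45, adjusted p = 0.125). It was -0.56 in replicates 1 and 2 alone (adjusted p = 1.0) and -2.18 in replicates 5, 6 and 7 alone (adjusted p = 0.0447). Between genotypes *fat-5* was near equal without supplement, at 29.4 ± 11.7 CPM in mutants and 26.4 ± 15.8 CPM in wild-type animals (SD, n = 5 each), with a log2 fold change of 0.08 and a 95% interval of -0.79 to 0.96. With vitamin B12 in both it averaged 3.14 ± 2.17 CPM in mutants and 10.8 ± 6.74 CPM in wild-type animals (SD, n = 5 each). It was lower in the mutant in all 5 same-numbered pairs, but the log2 fold change of -1.89 did not pass edgeR's test (adjusted p = 0.0909). No neighbours in the order of the 4 *fat-5* levels differed in the test.

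*fat-6*, the most abundant Δ9 transcript, had 159 to 511 CPM in Δ*dhgd-1* mutants with vitamin B12, against 363 to 569 CPM without it, and 227 to 549 CPM in wild-type animals with vitamin B12, against 313 to 462 CPM without it. These ranges overlapped in every comparison. Its log2 fold change with vitamin B12 was -0.55 in mutants (95% interval -0.96 to -0.13, adjusted p = 0.247) and -0.09 in wild-type animals (95% interval -0.50 to 0.32, adjusted p = 0.996). Between mutants and wild-type animals it was 0.07 without supplement (95% interval -0.34 to 0.48) and -0.39 with it (95% interval -0.80 to 0.03), and neither passed the test. In mutants the interval for vitamin B12 leaves room for a fall of up to 0.96 on the log2 scale, and it does not overlap the intervals of *fat-5* and *fat-7*.

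The balance between the paralogs shifted with *fat-7*. There were 1.26 *fat-7* counts per 100 *fat-6* counts on average in Δ*dhgd-1* mutants with vitamin B12 and 23.2 in those without, and 1.54 in wild-type animals with vitamin B12 and 9.40 in those without. *fat-6* made up 97.8%, 78.4%, 95.9% and 86.6% of all Δ9 counts in these 4 groups in the same order. In mutants with vitamin B12, replicate 2 had 0 *fat-7* counts beside 1158 *fat-6* counts, which allows a *fat-7* share of up to 0.318% of both (exact 95% interval), and replicate 1 had 6 beside 3855. In replicate 2, reads of *fat-6* counted as *fat-7* could thus have been no more than this share, whereas the reverse error has no such bound. These intervals cover counting error only.

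**Figure D2:**
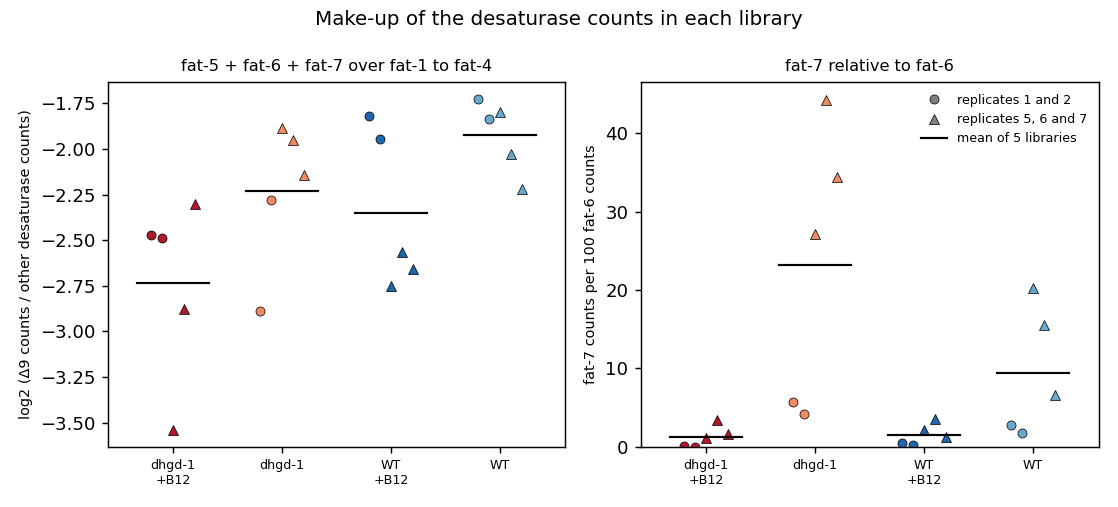
Left, log2 ratio of summed Δ9 counts (*fat-5*, *fat-6* and *fat-7*) to summed *fat-1* to *fat-4* counts in each library. Right, *fat-7* counts per 100 *fat-6* counts. Circles are replicates 1 and 2, triangles are replicates 5, 6 and 7, and bars are means of 5 libraries. The ratios on the left overlap in each of the 4 comparisons made, while on the right the mutants without vitamin B12 reach 44.3 and no library with vitamin B12 is above 3.59.

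Among the polyunsaturated steps, edgeR called *fat-2*, the Δ12 desaturase gene, in 2 comparisons. Replicates 1, 2, 5, 6 and 7 had 484, 321, 156, 85.7 and 112 CPM in Δ*dhgd-1* mutants with vitamin B12, against 1233, 825, 211, 216 and 207 CPM in those without. Wild-type animals had 445, 203, 105, 63.4 and 125 CPM with vitamin B12, against 298, 245, 104, 74.7 and 117 CPM without it. Replicates 1 and 2 were the high libraries of every group, and the mutant without supplement was above the other 3 groups at each replicate number.

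*fat-2* was higher in Δ*dhgd-1* mutants than in wild-type animals without supplement, by a log2 fold change of 1.31 (SE 0.23, 95% interval 0.84 to 1.78, edgeR adjusted p = 0.00121). The fold change passed the test in all 10 fits that left out a library. Vitamin B12 lowered it in mutants, where *fat-2* fell by 1.03 on the log2 scale (SE 0.23, 95% interval -1.49 to -0.56, adjusted p = 0.0114). That call was lost without Δ*dhgd-1* replicate 1 (-0.84, adjusted p = 0.06). In wild-type animals the log2 fold change with vitamin B12 was 0.05 (95% interval -0.42 to 0.51), and with vitamin B12 in both genotypes it was 0.23 in mutants relative to wild-type animals (95% interval -0.23 to 0.69). The difference of the vitamin B12 effects, -1.07 on the log2 scale, did not pass the test (unadjusted p = 0.00243, adjusted p = 0.582). In the order of levels, mutants without supplement (539 CPM) differed from mutants with it (232 CPM), and the wild-type means of 188 CPM with vitamin B12 and 168 CPM without it did not differ from their neighbours in the test.

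*fat-1*, the ω3 desaturase gene, had 228 to 818 CPM in Δ*dhgd-1* mutants with vitamin B12 and 306 to 1213 CPM in those without, and 181 to 564 CPM in wild-type animals with vitamin B12 and 176 to 577 CPM in those without. It was higher in mutants without supplement in 4 of 5 same-numbered pairs, but its log2 fold change of 0.75 did not pass edgeR's test (SE 0.21, 95% interval 0.31 to 1.18, adjusted p = 0.0553), whereas DESeq2 called it (adjusted p = 0.0214). With vitamin B12 in mutants it was lower in all 5 pairs, and the log2 fold change of -0.59 did not pass either (adjusted p = 0.227). In wild-type animals it was 0.09.

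*fat-3* and *fat-4*, the neighbouring Δ6 and Δ5 desaturase genes, passed no test in any comparison. *fat-3* had 138 to 305 CPM in Δ*dhgd-1* mutants with vitamin B12 and 141 to 413 CPM in those without, and 105 to 214 CPM in wild-type animals with vitamin B12 and 110 to 250 CPM in those without. Its log2 fold changes with vitamin B12 were -0.35 in mutants (95% interval -0.93 to 0.23) and -0.20 in wild-type animals (95% interval -0.78 to 0.38). *fat-4* had 753 to 1347 CPM in mutants with vitamin B12 and 1003 to 1545 CPM in those without, and 779 to 2233 CPM in wild-type animals with vitamin B12 and 615 to 1540 CPM in those without. Its intervals were the narrowest of the 7 genes, and its log2 fold changes were -0.15 in mutants (95% interval -0.53 to 0.24) and 0.27 in wild-type animals (95% interval -0.11 to 0.66).

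Counted together, 3 of the 7 genes (*fat-2*, *fat-5* and *fat-7*) passed the test with vitamin B12 in Δ*dhgd-1* mutants, all lower, where 1.86% of all tested genes passed at adjusted p under 0.05 and a fold over 1.5. In 2 of the 7 (*fat-5* and *fat-7*) the groups did not overlap, as in 2.35% of all tested genes. With vitamin B12 in wild-type animals 1 of 7 passed (*fat-7*, lower), beside 1.45% of all tested genes, and DESeq2 called *fat-5* as well (adjusted p = 0.0481). Between Δ*dhgd-1* mutants and wild-type animals without supplement 2 of 7 passed (*fat-2* and *fat-7*, both higher), beside 2.81% of all tested genes. With vitamin B12 in both genotypes edgeR called 0 of 7, beside 0.550% of all tested genes. There 1 of 7 had an unadjusted p under 0.05 (*fat-5*), as did 765 of the 11270 tested genes. DESeq2 called *fat-5* there (adjusted p = 0.0118). The difference of the vitamin B12 effects was called at adjusted p under 0.05 with no fold minimum. Both tools called 0 of 7 there, beside 0.0444% of all tested genes in edgeR. An unadjusted p under 0.05 was found for 4 of 7, and for 461 of the 11270 tested genes. All 7 differences of the effects were negative, where the median over all tested genes was 0.03.

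**Figure D3:**
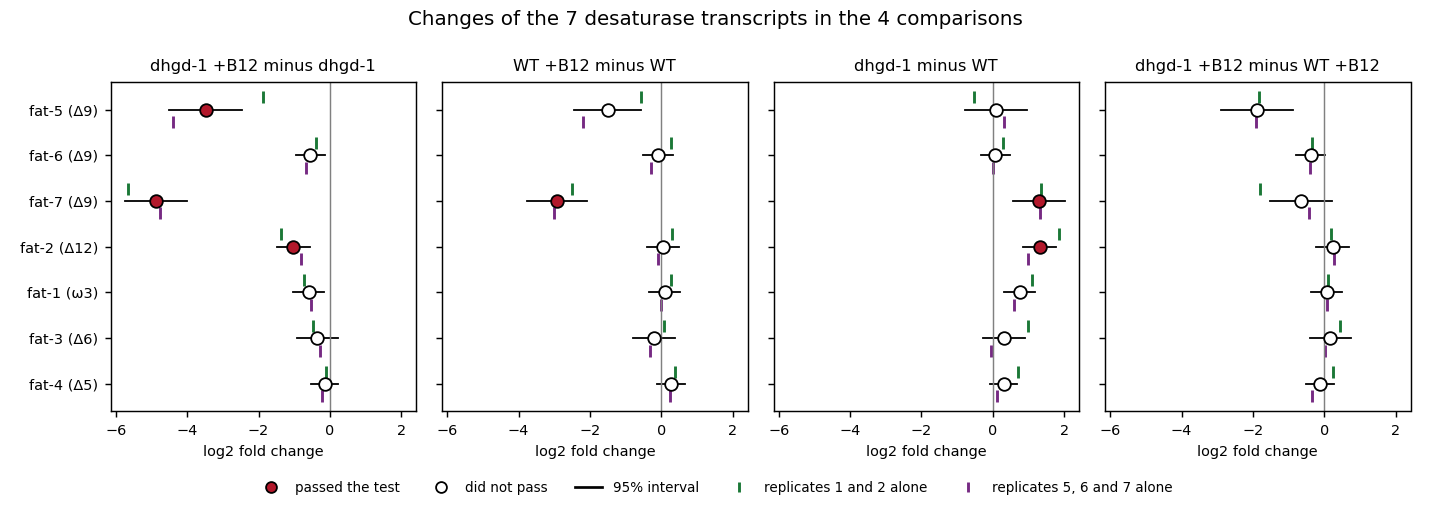
Log2 fold change of each desaturase gene in the 4 comparisons, named above each panel as the first group minus the second (WT, wild type). Points are edgeR estimates over all 20 libraries, filled where they passed the test, lines are 95% intervals, and ticks are the estimates from replicates 1 and 2 alone and from replicates 5, 6 and 7 alone. *fat-5* and *fat-7* lie furthest left in the mutant vitamin B12 panel, at -3.48 and -4.88, and *fat-6* stays at -0.55.

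The Δ9 genes as a group thus moved unequally. Their median log2 fold change with vitamin B12 was the value of *fat-5*, at -3.48 in Δ*dhgd-1* mutants and -1.51 in wild-type animals, where it had not passed. *fat-6* was at -0.55 and -0.09. The medians were -0.47 and 0.07 for *fat-1* to *fat-4* and 0.01 and -0.03 for all tested genes. Between mutants and wild-type animals without supplement the medians were 0.08 for the Δ9 genes (again *fat-5*), 0.53 for *fat-1* to *fat-4* and -0.03 for all genes. *fat-6* held most of the Δ9 counts, and the summed Δ9 level fell less than *fat-5* and *fat-7* did. It averaged 308 ± 134 CPM in mutants with vitamin B12 and 566 ± 52.9 CPM in those without (SD, n = 5 each). In wild-type animals it averaged 393 ± 133 CPM with vitamin B12 and 440 ± 63.0 CPM without it. The *fat-1* to *fat-4* sum averaged 1952 and 2727 CPM in mutants with and without vitamin B12. In wild-type animals that sum averaged 1956 and 1666 CPM. The log2 ratio of Δ9 counts to *fat-1* to *fat-4* counts averaged -2.74 ± 0.50 in mutants with vitamin B12 and -2.23 ± 0.40 in mutants without it, and -2.35 ± 0.43 in wild-type animals with vitamin B12 and -1.92 ± 0.20 in those without (SD, n = 5 each). The Δ9 genes made up 13.4%, 17.9%, 16.7% and 21% of the counts of all 7 genes in these 4 groups in the same order. Both differences of the log2 ratio with vitamin B12 were of the size of the spread between libraries of both series. In mutants the difference of -0.51 was 0.11 in replicates 1 and 2 alone and -0.92 in replicates 5, 6 and 7 alone. In wild-type replicates 1 and 2 the ratio averaged -1.88 with vitamin B12 and -1.78 without it. In wild-type replicates 5, 6 and 7 it averaged -2.66 and -2.02. Within replicates 5, 6 and 7 the libraries with and without vitamin B12 did not overlap in either genotype. No test was run on the ratio.

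Levels also differed between the library series. *fat-2* averaged 1029 CPM in replicates 1 and 2 of the Δ*dhgd-1* mutants without supplement and 212 CPM in replicates 5, 6 and 7, and *fat-1* averaged 1058 and 389 CPM. *fat-7* went the other way, with 26.1 CPM in replicates 1 and 2 of this group and 137 CPM in replicates 5, 6 and 7. Each group holds the same numbers of both series, and the sign of every call above was the same in either series alone. With the fewer libraries of 1 series the 2 calls between mutants and wild-type animals without supplement were lost, and the fall of *fat-7* in mutants was the one call kept in both. When the series was not a term in the fit, *fat-5* and *fat-7* still passed with vitamin B12 in mutants, whereas *fat-2* passed neither between genotypes without supplement (adjusted p = 0.334) nor with vitamin B12 in mutants (adjusted p = 0.794), and *fat-7* passed neither between genotypes without supplement (adjusted p = 0.659) nor with vitamin B12 in wild-type animals (adjusted p = 0.126).

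Of 40 other genes listed for lipid synthesis and its regulation, 36 were tested. Between mutants and wild-type animals without supplement edgeR called 1 of the 36, beside 2.81% of all tested genes. There 7 had an unadjusted p under 0.05, as did 1701 of the 11270 tested genes. With vitamin B12 in mutants edgeR called 1, beside 1.86%, and 9 were under 0.05, beside 1178 of all tested genes. Between the genotypes on vitamin B12 it called 0, with 1 under 0.05, beside 765 of all tested genes. With vitamin B12 in wild-type animals it called 0, with 2 under 0.05, beside 885 of all tested genes. DESeq2 called 2, 1, 0 and 1 in these 4 comparisons, with *ckb-2* added between the genotypes without supplement and the methyltransferase gene *pmt-2* with vitamin B12 in wild-type animals, the 0 being between the genotypes on vitamin B12. These lists were chosen with results of these data known. Among 11 regulators of the desaturases, *pqm-1*, a transcription factor gene of insulin signalling, was higher in Δ*dhgd-1* mutants than in wild-type animals without supplement, at 26.5 ± 14.5 CPM and 6.53 ± 1.54 CPM (SD, n = 5 each), a log2 fold change of 1.86 (edgeR adjusted p = 0.00174). The other 10, including the nuclear receptor, mediator and SREBP genes named above, passed in neither edgeR nor DESeq2, with 2 of the 10 at an unadjusted p under 0.05 in this comparison. Among 9 genes of phosphatidylcholine synthesis, the choline kinase gene *ckb-2* fell by 1.40 on the log2 scale with vitamin B12 in mutants (adjusted p = 0.0112), at 6.39 ± 1.44 CPM with it and 17.4 ± 5.57 CPM without it (SD, n = 5 each). In this comparison 5 of the 9 had an unadjusted edgeR p under 0.05, all lower, and the median over the 9 was -0.46. *pcyt-1* and *cept-2* went the other way, at 0.05 and 0.07. Of the 16 tested genes of fatty acid synthesis, elongation, electron supply and sphingolipid desaturase homologs, edgeR and DESeq2 called 0 in each of the 4 comparisons, with 2 at an unadjusted p under 0.05 with vitamin B12 in mutants and 0 in the other comparisons. The median over the 36 genes was -0.16 with vitamin B12 in mutants and -0.07 in wild-type animals.

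**Figure D4:**
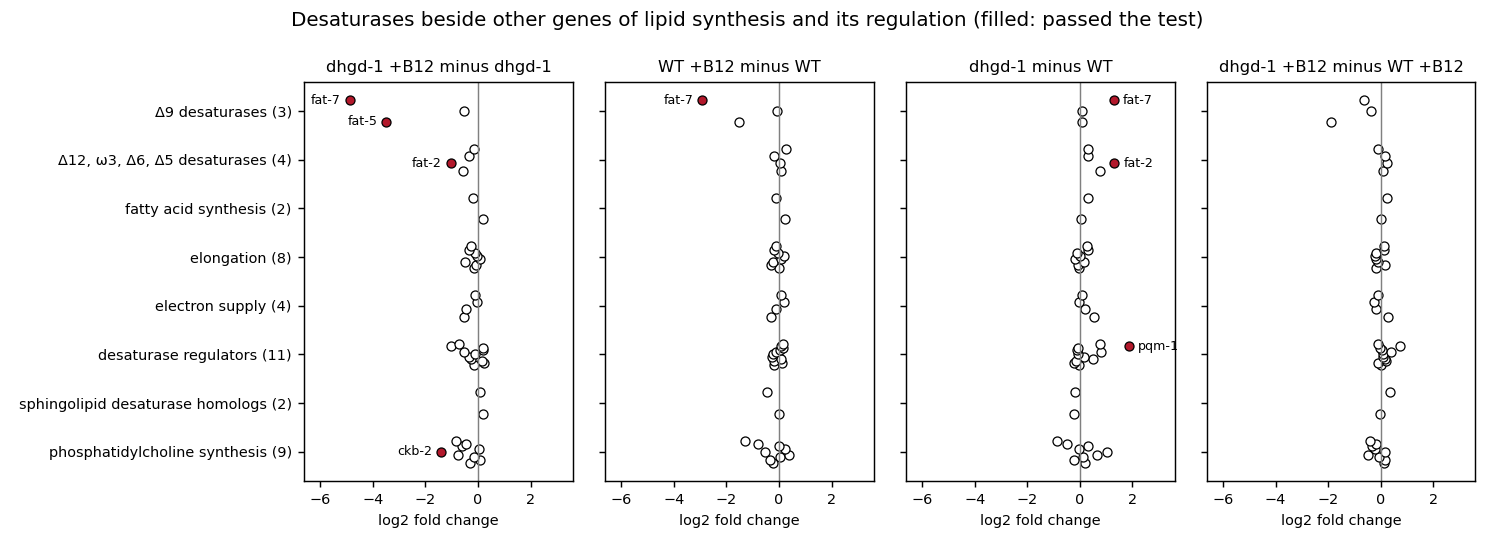
Log2 fold changes of the Δ9 and the other desaturases (top rows) and of the tested genes of each pathway list (number of genes in brackets) in the 4 comparisons, named above each panel as the first group minus the second (WT, wild type). Each point is 1 gene, and filled, named points passed the test. Outside the desaturases only *pqm-1* (1.86) and *ckb-2* (-1.40) are filled, by edgeR's test.

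Intestinal markers, 7 of 8 listed being in the table, were summed because the desaturases are expressed there. Their summed level was 756 to 1409 CPM in Δ*dhgd-1* mutants with vitamin B12 and 637 to 979 CPM in those without, and 686 to 1050 CPM in wild-type animals with vitamin B12 and 694 to 1039 CPM in those without. All 7 were detected in every group. The sum was weighted to *act-5*, which averaged 506 CPM in mutants with vitamin B12 and 450 CPM in those without. In these 2 groups *elt-2*, *elt-7* and *ges-1* each averaged 13.1 CPM or lower. The markers did not move alike with vitamin B12 in mutants: *mtl-2* averaged 219 CPM with it and 90.5 CPM without it, while the transcription factor gene *elt-7* and the esterase gene *ges-1* had log2 fold changes of -0.71 (unadjusted p = 0.0329, adjusted p = 0.410) and -0.56 (unadjusted p = 0.0269, adjusted p = 0.378), which did not pass the edgeR test. Between mutants and wild-type animals without supplement *elt-7* had a log2 fold change of 0.88 (unadjusted p = 0.0107, adjusted p = 0.158). These markers were singled out after their values were seen. Their part in the changes of the desaturases was not tested.

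The genes whose profiles over the 20 libraries were most like each desaturase were found by the root mean square (RMS) difference of log2 CPM, centred within each library series. For *fat-7* they were *ZK593.3* (1.01), *msra-1* (1.03) and *lys-4* (1.05), and for *fat-5* they were *C30G12.2* (0.95), the nuclear receptor gene *nhr-114* (0.96) and *kel-8* (0.98). The values are large because both genes varied widely, with an RMS of 2.17 for *fat-7* and 1.5 for *fat-5* about their own means. For *fat-2* they were *F31F7.1* (0.30), *F17C11.2* (0.32) and *ZC328.3* (0.33), and for *fat-6* the closest was the cytochrome b5 gene *cytb-5.1* (0.24). For *fat-1* the closest was *apm-1* (0.23), for *fat-3* it was *T19C3.4* (0.29) and for *fat-4* it was *ger-1* (0.17). Within the family *fat-5* was the member closest to *fat-7* (1.32), *fat-1* the one closest to *fat-2* (0.43) and *fat-6* the one closest to *fat-5* (1.28). The measure favours genes of small variation, so these values do not rank the likeness of *fat-6* to its paralog.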

How the data were processed

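RNA of 20 libraries from day 1 adult bodies was sequenced after a modified Cel-seq2 protocol, and per the study's methods and the labels the authors trimmed reads with Trimmomatic 0.32, aligned them with STAR, counted them with ESAT without pseudogenes and tested them with DESeq2. The deposited values are raw counts per gene. The genome build, strand setting and use of molecular identifiers are not given in the sources used here. Groups and replicate numbers came from the titles. The members and lists were chosen with earlier results of these data known.

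Counts were fitted with edgeR 4.0.16 (R 4.3.3): TMM scaling, filterByExpr by group, quasi-likelihood tests with group and library series as terms over all 20 libraries, and Benjamini-Hochberg adjustment over 11270 genes. A gene passed at adjusted p under 0.05 and a fold over 1.5, with no fold minimum for the difference of vitamin B12 effects. The 2 library series, 8 and 12 libraries, were read from the library names and taken as the sequencing batches of the study's methods, which no label states. SE and 95% intervals are from the quasi-likelihood fit. CPM is the count per 1000000 of the library total. Of 22736 genes, 22497 matched a symbol, and gene positions are from WBcel235, used for names and places only. Alternatives were DESeq2 1.42.0, other scalings and filters, other terms, each library series alone and each library left out. Replicates, biological ones per the labels, differed beyond sampling noise. The labels do not say what separated them, so p-values measure the spread between these samples. Named genes were the 7 members, listed genes that passed the test and, for each member, up to 3 genes with the smallest RMS difference in log2 CPM (prior count 2). Scripts were tested on simulated data.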

Additional observations from a re-analysis of the deposited data

Results flagged for a closer look

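*fat-3* in Δ*dhgd-1* mutants with vitamin B12 had 1 library far from the other 4, replicate 1 at 305 CPM, where the next highest had 175 CPM, a gap of 0.78 of the range of the group. This was 1 of 28 combinations of gene and group examined, where chance alone gives about 1.4. *fat-3* passed no test with or without this library.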

How the results depend on the processing

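The falls of *fat-5* and *fat-7* with vitamin B12 in Δ*dhgd-1* mutants passed in all 10 fits that left out a library (highest adjusted p 7.94e-04 and 7.08e-07), as did that of *fat-7* in wild-type animals (0.00113). Counts of desaturases that passed moved in these settings. Between Δ*dhgd-1* mutants and wild-type animals without supplement, 0 passed without the library series term, 0 in replicates 1 and 2 alone, 0 in replicates 5, 6 and 7 alone, and 1 to 3 with a library left out, where all genes called numbered 137, 22, 104 and 196 to 317, against 317 in the fit reported. DESeq2, no filter on low counts, library totals without TMM and the replicate block each called 3, adding *fat-1* (adjusted p 0.016 to 0.0214). Between the genotypes on vitamin B12, 1 passed (*fat-5*) without the filter, in DESeq2 and with the libraries of the comparison alone, and 0 to 1 with a library left out (1 without wild-type replicate 6 with vitamin B12, adjusted p 0.0478), where all genes called numbered 194, 97 and 39 in the first 3 of these settings, against 62. Of the 3 that passed with vitamin B12 in mutants, 1 did so in replicates 1 and 2 alone, with 8 genes called in all, against 210. For vitamin B12 in wild-type animals, 2 passed without the filter, in replicates 5, 6 and 7 alone and in DESeq2, and 0 without the series term and in replicates 1 and 2 alone, with 342, 79, 243, 80 and 12 genes called in all in the order given, against 163. For the difference of the effects, 2 passed without the filter, with 80 genes called in all, against 5.

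The log2 ratio of Δ9 to the other desaturase counts moved as follows. Without *fat-6* its difference was 0.30 between mutants and wild-type animals without supplement, -1.36 between them with vitamin B12, -3.64 with vitamin B12 in mutants and -1.99 in wild-type animals. With the mean of log2 CPM in place of sums the last 3 were -1.23, -2.50 and -1.42. In replicates 1 and 2 alone the first was -0.80 and in replicates 5, 6 and 7 alone 0.024, and in mutants with vitamin B12 it was 0.11 in replicates 1 and 2 alone.

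Only fold changes that had not passed turned sign. Between mutants and wild-type animals without supplement, *fat-5* was -0.53 in replicates 1 and 2 alone and -0.039 with the libraries of the comparison alone, *fat-3* was -0.043 and *fat-6* -0.0042 in replicates 5, 6 and 7 alone, and with a library left out *fat-5* ran from -0.21 to 0.62 and *fat-6* from -0.024 to 0.14. Between the genotypes on vitamin B12, *fat-4* was 0.24 in replicates 1 and 2 alone, and with a library left out *fat-1* ran from -0.035 to 0.16, *fat-3* from -0.0084 to 0.31 and *fat-4* from -0.28 to 0.0701. For vitamin B12 in wild-type animals, *fat-3* was 0.0625 and *fat-6* 0.26 in replicates 1 and 2 alone, *fat-1* was -0.0018 and *fat-2* -0.082 in replicates 5, 6 and 7 alone, and with a library left out *fat-1* ran from -0.011 to 0.31, *fat-2* from -0.072 to 0.19, *fat-3* from -0.35 to 0.10 and *fat-6* from -0.18 to 0.023. The difference of the effects for *fat-3* was 0.048 in replicates 5, 6 and 7 alone and ran from -0.47 to 0.058 with a library left out. The causes were not tested.

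The replicate numbers were not taken as pairing the samples, since the likeness of same-numbered libraries was uneven. Of 30 correlations between same-numbered residuals 19 were over 0.1, with a median of 0.19 and a lowest of -0.22. The median between libraries of other groups and numbers was -0.057. Of 20 libraries, 12 were closest to their own number, so some pairing may be present. With a replicate block, *fat-7* between genotypes without supplement had an edgeR adjusted p of 0.00918, against 0.0434 in the fit reported. With the replicate number as a block, 3, 0, 3, 1 and 0 desaturases passed in the 5 comparisons, and over all genes 627, 107, 372, 271 and 13 against 317, 62, 210, 163 and 5. Depth limits *fat-7* and *fat-5* most, with 0 to 116 and 15 to 36 counts a library in mutants with vitamin B12.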
